A study of Rattus norvegicus with 6 samples.

Results

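The sarcomere and muscle genes described here are 10 genes that code for parts of the contractile apparatus of striated muscle or are abundant in it: Myl11, Myl1, Des, Tpm1, Nebl, Myoz2, Myom2, Car3, Tnnc1 and Tnni1. They were chosen by their gene symbol in the platform annotation, and the set itself was selected on measured values of the comparison reported below, so their ratios are given as a description with no test. The members were 14 clones, printed as 28 spots, out of 8064 clones and 16128 spots on the array. At the level of genes they were 10 of 3158 named genes, among 7180 features when each of the 4022 clones without a single gene name counts as a feature.

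The study compared 3 rat tumor cell lines, JA, JB and Amy, with a pool of normal cells on cDNA arrays read in 2 colours. The labels describe the tumor lines as derived from reflux-induced tumors of the esophagus, and the pool as a 1:1 mixture of the normal esophageal cell lines Normal1 and Normal2. Total RNA of each line was hybridized against the pool on 2 arrays with the dyes exchanged. Per the labels the groups carry no named genotype, treatment or time, and the age and strain of the donor animals are not given in the sources used here. Each tumor line is 1 line from 1 extract, so the spread over lines is a spread between cell lines. The pool is 1 mixed sample whose own spread was not measured.

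All values are log2 ratios, written as tumor line over normal pool. A value of -1 means that the signal of the line was lower by 1 doubling. The direction is likely rather than settled, because it rests on the order of names in the sample titles. Reversing it would exchange lower and higher throughout. A ratio carries no level, so the members cannot be ranked by abundance, and it was not possible to see whether a signal was above background. In bulk RNA of this kind, fewer cells of a type and less RNA per cell cannot be told apart. Array medians over all spots lay between -0.05 and -0.15, and the duplicate spots of an array had a correlation of 0.907 to 0.949. No value was missing. The median over all features was -0.12, so the middle of these data lies slightly below 0.

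A sarcomere is the repeating contractile unit of striated muscle. Thick filaments of myosin, with their light chains, slide along thin filaments of actin, on which tropomyosin and the troponin complex gate the contact in response to calcium. Thin filaments are anchored at the Z-disc and thick filaments at the M-band, and desmin intermediate filaments tie neighbouring Z-discs to each other. In the rat the outer muscle coat of the esophagus is striated along its length, under a stratified squamous epithelium and a layer of connective tissue. The labels describe cell lines, and do not say which cell types of the esophagus the normal lines came from.

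The muscle genes formed a group with very low ratios, a group with moderately low ratios and a single gene near 0. Car3, Myl11, Nebl, Des, Myoz2 and Myom2 had mean log2 ratios between -5.11 and -4.47, Myl1, Tpm1 and Tnnc1 between -2.50 and -1.38, and Tnni1 stood at 0.14. The median over the 10 members was -4.66. Of the named genes, 50 had a mean at or below -4, and 6 of these 50 were members. Ranked from the lowest of the 3158 named genes, Car3 was at 19, Myl11 at 20, Nebl at 21, Des at 28, Myoz2 at 29 and Myom2 at 32. Myl1 was at 124, Tpm1 at 202, Tnnc1 at 335 and Tnni1 at 1911. A total of 8 of the 10 genes, and 12 of their 14 clones, were lower by at least 1 on all 6 arrays. Over all features 8.12% met that condition. Because these ratios chose the members, the count is read no further.

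**Figure D1:**
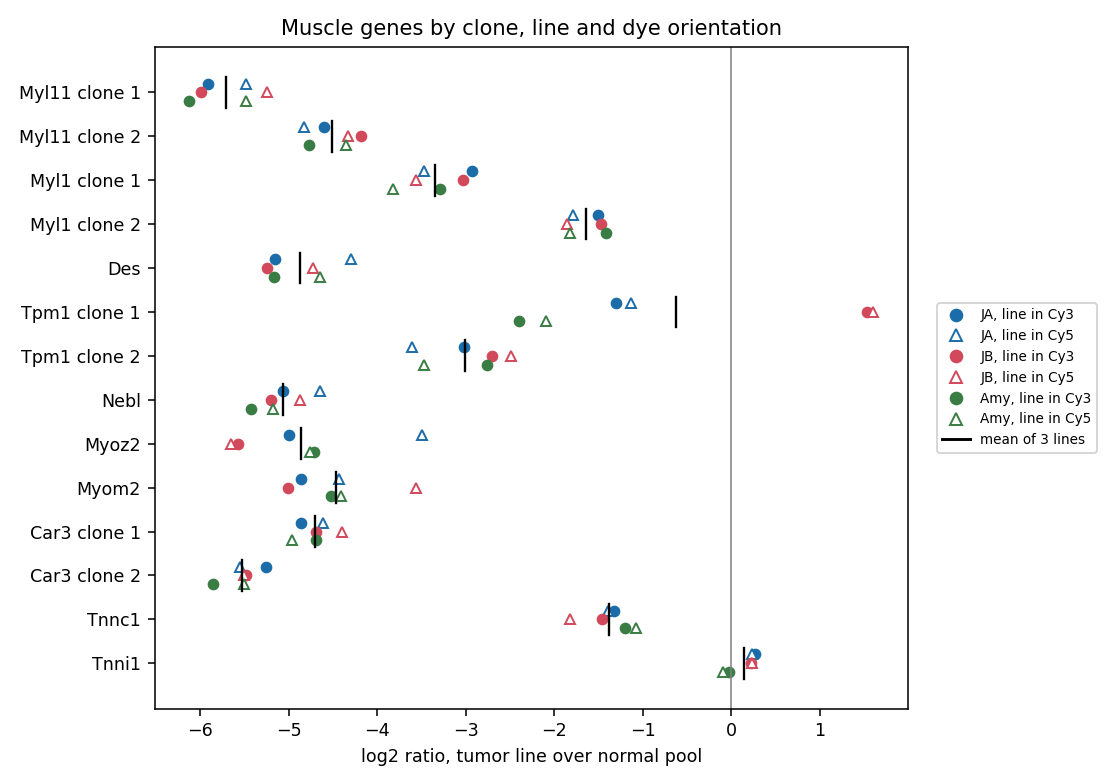
Log2 ratio of tumor line over normal pool on the x axis for each of the 14 clones of the muscle genes, with 1 point per array (colour, line; filled circle, line in Cy3; open triangle, line in Cy5) and a bar at the mean of 3 lines. Most clones lie left of -1 with the lines close together, Tnni1 lies near 0, and in Tpm1 clone 1 both JB arrays lie right of 0 while JA and Amy lie left of it.

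The myosin light chains of the thick filament were low in all lines. In the values that follow, the first value of a line is from the array with the line in Cy3 and the second from the array with the line in Cy5. Myl11, the regulatory light chain of fast skeletal muscle myosin, was measured by 2 clones. Clone 1 was at -5.91 and -5.48 in JA, -5.99 and -5.24 in JB, and -6.12 and -5.48 in Amy. Clone 2 was at -4.60 and -4.83 in JA, -4.18 and -4.33 in JB, and -4.77 and -4.35 in Amy. The lines overlapped in clone 1, and in clone 2 both values of JB lay above those of JA and Amy. Every array value of clone 1, a mean over its spots, lay below every array value of clone 2. Single spots did not keep this order on the JA array in Cy5. There the duplicate spots of clone 2 were at -5.606 and -4.045, and those of clone 1 at -5.603 and -5.362. The clone means were -5.71 ± 0.09 and -4.51 ± 0.23 (SD, n = 3 lines), or 52.2-fold and 22.8-fold lower in the tumor lines, and the gene mean was -5.11 ± 0.15, 34.5-fold lower.

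Myl1, which encodes the essential light chain of fast skeletal muscle myosin, was less low and also had 2 clones. Clone 1 was at -2.93 and -3.47 in JA, -3.04 and -3.56 in JB, and -3.29 and -3.82 in Amy. Clone 2 was at -1.50 and -1.79 in JA, -1.47 and -1.86 in JB, and -1.41 and -1.82 in Amy. The lines overlapped in both clones, all 12 values were below -1, and on each array clone 1 was lower than clone 2. In both clones and all 3 lines the array with the line in Cy5 gave the lower value. The means were -3.35 ± 0.18 for clone 1 and -1.64 ± 0.02 for clone 2, and -2.50 ± 0.08 for the gene, or 5.65-fold lower.

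The thin filament members were less low, with gene means between -1.82 and 0.14. Tpm1 encodes alpha-tropomyosin, which lies along actin filaments, and its transcripts are spliced differently in muscle and in other cells. Tpm1 clone 2 was low in every line, at -3.02 and -3.60 in JA, -2.70 and -2.49 in JB, and -2.76 and -3.47 in Amy, with a mean of -3.01 ± 0.37 or 8.04-fold lower. JB was the highest line in this clone too, by a smaller distance. Tpm1 clone 1 was at -1.30 and -1.13 in JA, 1.54 and 1.60 in JB, and -2.40 and -2.09 in Amy. The 3 lines did not overlap in clone 1, and JB was the line above the pool. The mean of clone 1, -0.63 ± 1.97, therefore describes no line, and neither does the gene mean over both clones, -1.82 ± 1.15.

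The troponins were the members closest to 0. Tnnc1 encodes the troponin C of slow skeletal and cardiac muscle, the calcium-binding subunit. It was at -1.32 and -1.39 in JA, -1.46 and -1.82 in JB, and -1.20 and -1.08 in Amy. These values were all below -1, JB being lowest in both orientations and Amy highest, and their mean was -1.38 ± 0.25, or 2.60-fold lower. Tnni1 encodes the slow skeletal troponin I, the inhibitory subunit. It was at 0.27 and 0.24 in JA, 0.22 and 0.23 in JB, and -0.03 and -0.09 in Amy. JA and JB lay close together and above Amy, but the whole span was under 0.5, and the mean was 0.14 ± 0.17. Centring of the arrays gave a Tnni1 mean of 0.25.

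The members of the Z-disc and M-band were all very low. Nebl encodes nebulette, an actin-binding protein of the Z-disc that is prominent in heart. It was at -5.06 and -4.64 in JA, -5.19 and -4.87 in JB, and -5.42 and -5.17 in Amy, with a mean of -5.06 ± 0.23, or 33.4-fold lower. Amy was the lowest line in each orientation and JA the highest. Myom2, which encodes the M-band protein myomesin-2, was at -4.86 and -4.43 in JA, -5.01 and -3.56 in JB, and -4.52 and -4.40 in Amy. The lines overlapped, since JB had both the lowest and the highest value, and the mean was -4.47 ± 0.18, or 22.1-fold lower.

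Myoz2 encodes myozenin-2 (calsarcin-1), a Z-disc protein of cardiac and slow skeletal muscle that binds calcineurin. It was at -4.996 and -3.49 in JA, -5.57 and -5.65 in JB, and -4.71 and -4.76 in Amy, with a mean of -4.86 ± 0.69, or 29.1-fold lower. JB was the lowest line in both orientations. The single spots behind these values ran from -7.58 to -3.38, and the duplicate spots differed by up to 3.86 on 1 array, that of JB in Cy5. The mean difference between duplicates was 1.18 for Myoz2, against a median of 0.14 over all clones, and 2.36% of clones had a larger one. The range of the Myoz2 line means, 1.36, was above the mean and below the largest duplicate difference.

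Des and Car3 belong to neither the thick nor the thin filament. Des encodes desmin, the intermediate filament protein of muscle cells of all types. It was at -5.15 and -4.30 in JA, -5.24 and -4.73 in JB, and -5.16 and -4.65 in Amy, with a mean of -4.87 ± 0.13, or 29.3-fold lower. The lines overlapped, and each line was lower on the array with the line in Cy3. Car3 encodes carbonic anhydrase 3, a cytosolic enzyme abundant in slow skeletal muscle, fat and liver, and it had 2 clones.

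Car3 clone 1 was at -4.86 and -4.62 in JA, -4.69 and -4.39 in JB, and -4.69 and -4.96 in Amy. Clone 2 was at -5.25 and -5.55 in JA, -5.48 and -5.51 in JB, and -5.85 and -5.50 in Amy. The lines overlapped in clone 1, and in clone 2 every value was below every value of clone 1. The means were -4.70 ± 0.14 and -5.52 ± 0.14 for the clones, 26.0-fold and 46.0-fold lower, and -5.11 ± 0.12 for the gene, 34.6-fold lower, the lowest of the 10 members together with Myl11.

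The promoters of members that were low together were read for sites of known muscle factors. RefSeq windows on GRCr8, from 250 bases before to 50 after the transcript start, were matched by gene identifier for 7 of the 10 genes, with 2 windows for Myl1. Myom2, Car3 and Tnnc1 were not matched. Both strands were searched for the CArG box bound by serum response factor, the MEF2 motif, the E-box CAGCTG, a form bound by the MyoD family, and TATANA, and matches are in capitals below. The windows shown are the 4 of very low or low members with an E-box or a MEF2 motif, followed by that of Tnni1, whose ratio was near 0. They lie at chr1:191260039-191260338 on the plus strand for Myl11, chr9:84299376-84299675 on the plus strand for Des, chr2:213852729-213853028 on the minus strand for Myoz2, chr9:75897750-75898049 on the minus strand for the second window of Myl1, and chr13:49781279-49781578 on the plus strand for Tnni1.
Myl11: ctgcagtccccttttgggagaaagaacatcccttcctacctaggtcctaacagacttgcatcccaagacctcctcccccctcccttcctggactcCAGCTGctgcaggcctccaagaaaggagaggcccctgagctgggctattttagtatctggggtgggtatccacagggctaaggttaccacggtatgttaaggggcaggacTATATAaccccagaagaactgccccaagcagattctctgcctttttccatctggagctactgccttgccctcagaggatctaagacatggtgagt
Des: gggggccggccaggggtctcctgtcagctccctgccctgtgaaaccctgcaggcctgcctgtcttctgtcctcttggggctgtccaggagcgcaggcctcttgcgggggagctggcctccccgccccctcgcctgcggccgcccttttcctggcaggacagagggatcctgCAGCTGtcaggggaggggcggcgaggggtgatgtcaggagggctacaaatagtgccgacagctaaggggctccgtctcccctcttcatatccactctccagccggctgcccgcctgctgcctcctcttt
Myoz2: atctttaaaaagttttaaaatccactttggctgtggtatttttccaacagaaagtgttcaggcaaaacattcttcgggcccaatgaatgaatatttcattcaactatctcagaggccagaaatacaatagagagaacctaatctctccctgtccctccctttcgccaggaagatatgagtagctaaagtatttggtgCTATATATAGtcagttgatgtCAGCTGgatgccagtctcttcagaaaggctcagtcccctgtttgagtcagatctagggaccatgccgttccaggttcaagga
Myl1: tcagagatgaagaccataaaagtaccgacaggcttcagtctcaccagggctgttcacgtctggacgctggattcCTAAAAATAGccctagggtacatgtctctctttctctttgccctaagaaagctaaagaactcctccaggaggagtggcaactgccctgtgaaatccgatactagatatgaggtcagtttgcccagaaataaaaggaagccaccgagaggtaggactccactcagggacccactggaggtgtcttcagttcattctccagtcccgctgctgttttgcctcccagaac
Tnni1: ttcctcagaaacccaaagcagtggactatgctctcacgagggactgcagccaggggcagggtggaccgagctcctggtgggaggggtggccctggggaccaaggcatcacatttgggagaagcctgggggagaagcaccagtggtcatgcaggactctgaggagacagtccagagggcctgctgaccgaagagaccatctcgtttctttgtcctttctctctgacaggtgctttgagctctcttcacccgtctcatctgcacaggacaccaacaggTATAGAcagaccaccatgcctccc

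In these windows the E-box began at -155 in Myl11, -79 in Des and -32 in Myoz2, counted from the start. The MEF2 motif began at -176 in the second window of Myl1 and at -53 in Myoz2, where it overlaps the TATANA matches at -52 and -50. Tnni1 had no match but TATANA, at 27 after the start. Among the windows not shown, that of Tpm1 and the first of Myl1, both low members, also had no match but TATANA. The CArG box was found in Nebl alone, at -177, and Nebl had no other match. The windows of low members shown were picked by their matches, so they do not set the low members apart from Tnni1. Over members, the E-box was in 3 of 7 genes, the MEF2 motif in 2, the CArG box in 1 and TATANA in 5. Over all 33469 windows of that length, 15.06% held the E-box, 3.29% the MEF2 motif, 1.64% the CArG box and 26.48% TATANA. A match is a match of letters, and 7 genes are too few to set their shares against these. Nothing about the binding of a factor was measured.

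Both clones of a gene carry the same accession in the platform annotation, yet all 4 genes with 2 clones gave different ratios for them. Clone 1 minus clone 2 was -1.20 for Myl11, -1.71 for Myl1, 0.82 for Car3 and 2.38 for Tpm1, as means over lines. For Myl11, Myl1 and Car3 the clones kept their order in every line, and their distance varied by less than 0.5 between lines. For Tpm1 the distance was widest in JB, at 4.16, against 2.10 in JA and 0.87 in Amy. Over the 499 named genes with exactly 2 clones, the median absolute distance between clone means was 0.44 and the 95th percentile 2.89. All 4 members were above that median and below that percentile. Which transcripts or which part of the gene a clone covers was not given in the sources used here.

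**Figure D2:**
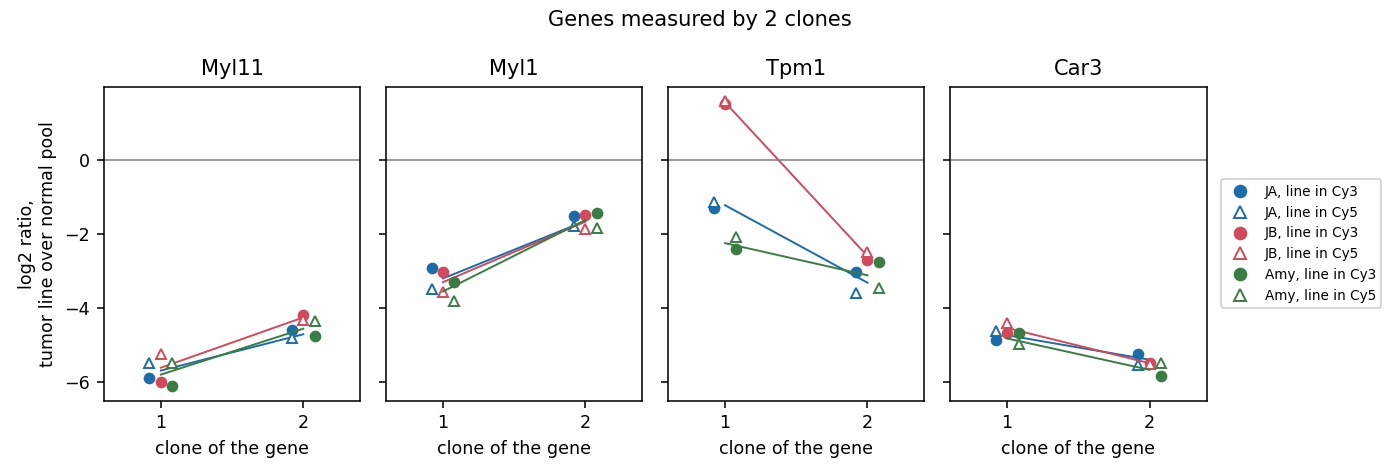
Log2 ratio of tumor line over normal pool (y axis) for the first and second clone (x axis) of Myl11, Myl1, Tpm1 and Car3, with 1 point per array and a line through the mean of each tumor line. The 3 lines run side by side in Myl11, Myl1 and Car3 and part in Tpm1, where JB is at 1.57 in clone 1 and at -2.59 in clone 2.

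The range of the line means was smaller than the distance of the mean from 0 in 12 of the 14 clones, the exceptions being Tpm1 clone 1 and Tnni1. A clone was counted as having a line set apart when that line differed by at least 1 from both other lines, in the same direction and in both dye orientations. This held for 1 of the 14 clones, Tpm1 clone 1, and for 2.95% of all 8064 clones. In that clone JB exceeded JA by 2.84 in the Cy3 orientation and 2.73 in the Cy5 orientation, and it exceeded Amy by 3.93 and 3.69. Amy minus JA was -1.10 and -0.96. That range was under 1 except in Tpm1 clone 1, with 3.81, and Myoz2, with 1.36. With 1 extract per line these differences have no replicate and were not tested.

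The spread over lines was about that of the array as a whole. The median SD of the 3 lines was 0.18 over the members, against 0.23 over all features and 0.32 over the 91 features with a mean at or below -4. Tpm1, at 1.15, and Myoz2, at 0.69, were the members with the most spread, and Myl1, at 0.08, had the least.

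**Figure D3:**
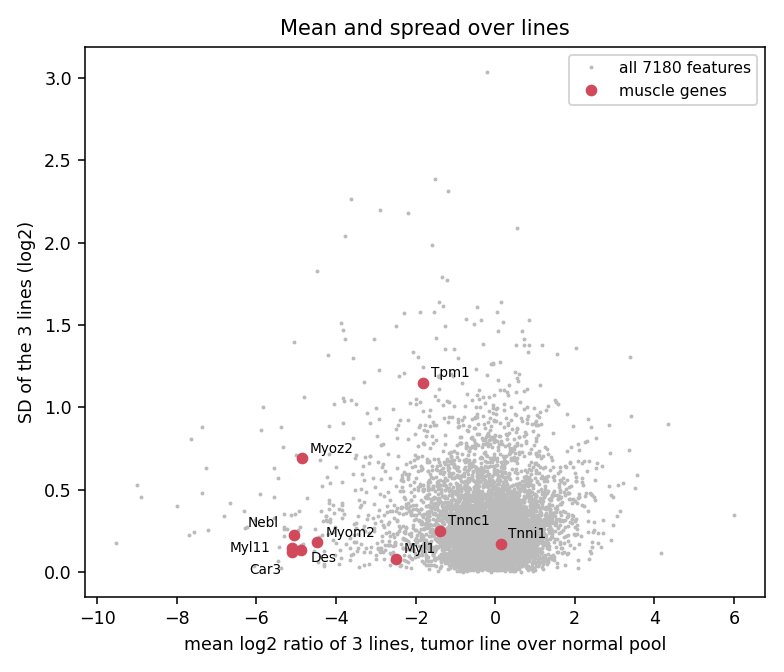
Mean log2 ratio of tumor line over normal pool (x axis) against the SD of the 3 lines (y axis, log2) for all 7180 features in grey and the 10 muscle genes in red. Car3, Myl11, Nebl, Des and Myom2 lie far to the left with an SD at or below 0.23, Myoz2 and Tpm1 lie above them, and Tnni1 lies within the bulk.

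The dye orientation moved each member by less than the distance of its mean from 0. The mean with the line in Cy5 minus the mean with the line in Cy3 was 0.67 for Myom2, 0.63 for Des, 0.46 for Myoz2, 0.33 for Nebl, 0.31 for Myl11, 0.05 for Car3, -0.03 for Tnni1, -0.09 for Tpm1, -0.10 for Tnnc1 and -0.45 for Myl1. Thus 6 members were lower with the line in Cy3 and 4 with the line in Cy5. By these means over lines, the 6 members at or below -4 are those that were lower with the line in Cy3. Single lines did not all go that way. Myoz2 was lower in Cy5 in JB (-5.57 in Cy3 and -5.65 in Cy5) and in Amy (-4.71 and -4.76). Car3 was lower in Cy5 in JA (-5.057 and -5.083). Of all 91 features at or below -4 there were 47 lower with the line in Cy3 and 44 with the line in Cy5. The median absolute difference over all features was 0.27.

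Other genes of muscle were followed through lists of symbols, and here limma was used to test the mean of the 3 lines against 0, with Benjamini-Hochberg adjustment over all features at a threshold of 0.05. Over all 7180 features, 32.8% passed as lower and 20.7% as higher, and the counts below stand beside those shares. Of 11 measured sarcomere proteins outside the members, 10 fell and 1 did not pass. Their median was -0.74. The deepest was Nexn, which encodes the actin-binding Z-disc protein nexilin, at -3.05 and -3.81 in JA, -3.47 and -3.87 in JB, and -3.25 and -4.44 in Amy. All 6 values lay below -3, and the mean was -3.65 ± 0.21 (adjusted p = 8.38e-05), although the 2 Nexn clones averaged -5.09 and -2.20.

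Pdlim5, Pdlim7 and Pdlim3 encode adaptor proteins with PDZ and LIM domains. All 3 fell, Pdlim5 with a mean of -2.23 ± 0.40 (adjusted p = 8.21e-04), Pdlim7 with -0.98 ± 0.12 (0.0026) and Pdlim3 with -0.79 ± 0.13 (0.00484). Without moderation of the variances Pdlim5 and Pdlim3 did not pass, at 0.0552 and 0.053 (0.00044 to 0.0552 and 0.0028 to 0.053 over the alternatives). Pdlim1, of the same family, was the 1 gene of the list that did not pass, at 0.13 ± 0.19 (0.419), and was named after its value was seen. Myh3, the embryonic skeletal myosin heavy chain, fell by 0.77 ± 0.41 (0.0202), and this call was lost without JA (0.12; 0.0102 to 0.152 over the alternatives). The list count depended on the lines, with 5 genes lower without JA, 8 without JB and 6 without Amy. After centring of the arrays 8 were lower, with a spread assumed for the pool 4, and without moderation of the variances 3. Myh6 and Cryab, counted as fallen and named after their values were seen, did not keep their sign on all arrays. Myh6 was at 0.04 on the JA array in Cy3, and Cryab at 0.06 on the JA array in Cy5.

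Muscle genes that act outside the filaments were mixed. Of 9 genes of calcium handling and excitation, 3 fell and 6 did not pass. Their median was 0.07, and after centring of the arrays 2 fell and 1 rose. Pln encodes phospholamban, the inhibitor of the calcium pump of the sarcoplasmic reticulum in heart and slow muscle. Pln was at -3.46 and -2.88 in JA, -5.37 and -6.02 in JB, and -3.15 and -4.38 in Amy, with JB lowest in both orientations. It averaged -4.21 ± 1.32 (adjusted p = 0.00226; 6.44e-05 to 0.0862 over the alternatives, the highest without moderation of the variances), slightly above the highest of the 6 very low members. Itpr1, an inositol trisphosphate receptor, fell by 0.98 ± 0.07 (0.00227), with clones at -2.03 and 0.07. Cacna2d1, an auxiliary calcium channel subunit, averaged -0.41 ± 0.10 (0.0337) and was lost without any 1 of the lines (0.152 without JA, 0.0651 without JB and 0.0937 without Amy; 0.0281 to 0.157 over the alternatives).

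Of 8 regulators of muscle transcription, 4 fell, 2 rose and 2 did not pass. Their median was -0.36, and without JA 2 fell and 1 rose. Hopx, a homeodomain-only cofactor that acts on serum response factor in heart, fell by 4.16 ± 0.39 (adjusted p = 1.29e-04), and Tead1, which binds the MCAT element of muscle genes, fell by 1.15 ± 0.24 (0.0026). The cardiac homeobox factor Nkx2-5 rose by 1.55 ± 0.38 (0.00214). Id3, an inhibitor of MyoD family factors, rose by 1.43 ± 0.68 (0.0093) and its relative Id2 fell by 0.72 ± 0.44 (0.0279). Both were lost without JA, at 0.0705 for Id3 and 0.136 for Id2 (0.000947 to 0.133 and 0.0223 to 0.176 over the alternatives). Tead1 and Nkx2-5 did not pass without moderation of the variances, at 0.0616 and 0.0708 (0.00187 to 0.0616 and 0.00121 to 0.0708 over the alternatives).

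Of 12 genes on the list of muscle energy metabolism, which also holds the ecto-ADP-ribosyltransferase family gene Art3, 6 fell and 6 did not pass. Their median was -0.55, and 3 fell without JA. Art3, an ecto-ADP-ribosyltransferase family member expressed in muscle, fell by 2.26 ± 0.20 (adjusted p = 3.19e-04), with clones at -1.19 and -3.33. Its mean was -1.45 with the line in Cy3 and -3.07 with the line in Cy5, a gap that the SD over lines does not include. The fatty acid oxidation genes Acadvl and Cpt1b fell, with means of -1.44 ± 0.43 (0.00333; 0.000549 to 0.0834 over the alternatives, the highest without moderation) and -1.07 ± 0.07 (0.00179). The 2 Cpt1b clones averaged -0.44 and -1.70. Pdk4, a kinase that inhibits pyruvate dehydrogenase, fell by 1.40 ± 0.56 (0.0061). Ldhb, a lactate dehydrogenase subunit, averaged -0.53 ± 0.21 (0.024). Without JA, Pdk4 and Ldhb were at 0.0563 and 0.127 (0.000388 to 0.11 and 0.0238 to 0.127 over the alternatives), and Ldhb was at 0.0652 without JB and 0.0536 after centring.

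Of 5 genes of the dystrophin complex and sarcolemma, 2 fell, 1 rose and 2 did not pass. Their median was -0.10, and after centring 2 fell and 2 rose. Ank3, an ankyrin that anchors membrane proteins, fell by 0.96 ± 0.07 (adjusted p = 0.00238). The spectrin gene Sptbn1 fell by 0.59 ± 0.32 (0.0292), a call lost without JA (0.15) and without Amy (0.128). The integrin gene Itgb1 rose by 0.73 ± 0.17 (0.00719), with clones at 0.06 and 1.40, and was lost without JA (0.0522). Over the alternatives Sptbn1 ranged from 0.00902 to 0.154 and Itgb1 from 0.00524 to 0.0689. Dag1, which encodes dystroglycan, averaged -0.10 ± 0.21 (0.543) with clones at -0.85 and 0.64, and Cavin1, a protein of caveolae, 0.41 ± 0.25 (0.058, and 0.0269 after centring).

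Smooth muscle genes were few on the array. Of 4 measured, 1 fell, 2 rose and 1 did not pass. Their median was 0.15. The calponins Cnn3 and Cnn2, actin-binding proteins also present outside muscle, rose by 1.11 ± 0.54 (adjusted p = 0.0114) and 0.58 ± 0.12 (0.012), and without JA they were at 0.0722 and 0.0735 (0.00811 to 0.136 and 0.0067 to 0.0777 over the alternatives). The adaptor gene Sorbs2 fell by 0.70 ± 0.18 (0.00847), and passed neither with a spread for the pool (0.0577) nor without moderation of the variances (0.0733; 0.00854 to 0.0733 over the alternatives). Cald1 encodes caldesmon, an actin-binding protein of smooth muscle and other cells. It was at -0.39 and -0.21 in JA, 0.41 and 0.83 in JB, and -1.29 and -1.07 in Amy. As in Tpm1 clone 1, JB lay above JA and Amy below it, and the mean, -0.28 ± 0.90, did not pass (0.515; 0.0399 without JB, and 0.0399 to 0.754 over the alternatives).

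The list of non-muscle actomyosin and intermediate filaments, which also holds the muscle-type cofilin gene Cfl2, went in both directions. Of its 24 measured genes, 5 fell, 7 rose and 12 did not pass. Their median was 0.19. After centring of the arrays 5 fell and 11 rose, and 3 rose without JA and 4 without Amy. Arpc1b, a subunit of the Arp complex that nucleates branched actin, rose by 3.55 ± 0.59 (adjusted p = 4.8e-04), and the nuclear lamin gene Lmnb1 by 1.59 ± 0.60 (0.00499). Neither passed without moderation of the variances, at 0.0535 and 0.104 (3.94e-05 to 0.0535 and 0.00327 to 0.104 over the alternatives). The non-muscle myosin heavy chain gene Myh9 and the beta-actin gene Actb rose by 1.02 ± 0.72 (0.031) and 0.73 ± 0.38 (0.02). Without JA these were at 0.0726 and 0.0958, and without Amy at 0.0707 and 0.0852 (0.02 to 0.21 and 0.00672 to 0.21 over the alternatives). Actb was at -0.26 on the JB array in Cy3, and with the line in Cy3 alone its mean was 0.39 (0.21). Its 5 clones averaged between 0.11 and 1.18. On the other side, the actin-severing protein gene Gsn, the muscle-type cofilin gene Cfl2 and the pointed-end capping gene Tmod3 fell, with means of -4.35 ± 0.52 (2.04e-04), -2.68 ± 0.30 (3.1e-04) and -1.61 ± 0.22 (9.35e-04) in that order. The 2 Cfl2 clones averaged -5.59 and 0.23. Actn4, also counted among the 5 that fell and named after its values were seen, had a mean of -1.71 over the Cy3 orientation and of 0.28 over the other.

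**Figure D4:**
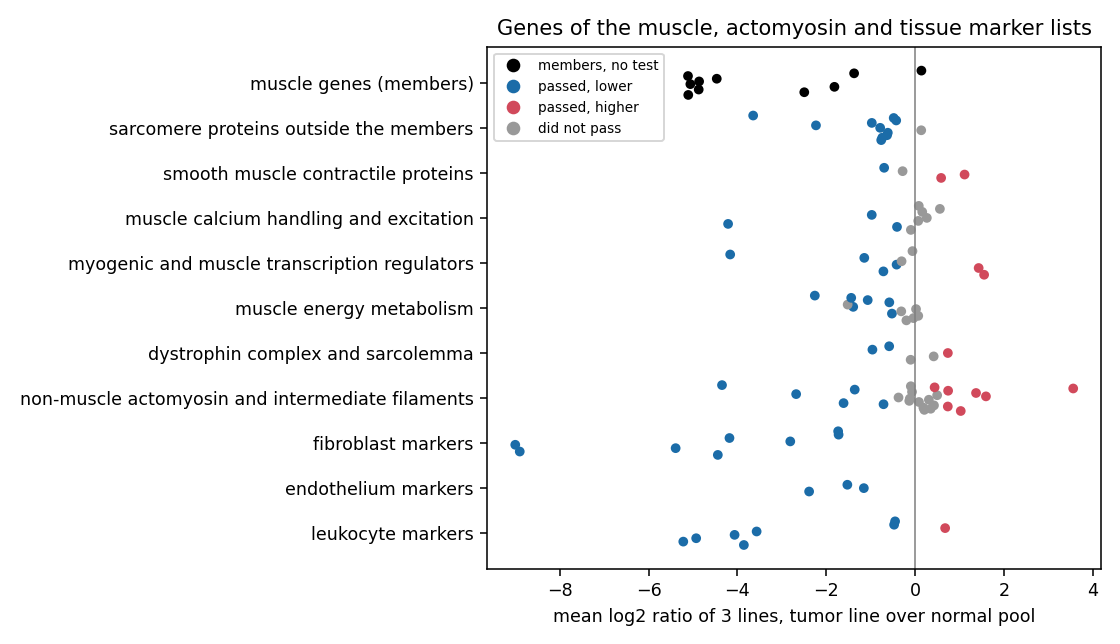
Mean log2 ratio over the 3 lines, tumor line over normal pool (x axis), for each measured gene of the muscle, actomyosin and connective tissue, vessel and blood marker lists (y axis), coloured by whether limma's adjusted p passed 0.05 and in which direction. The members are in black and untested. All 8 fibroblast genes lie left of 0, as do 10 of 11 sarcomere genes outside the members, while the non-muscle actomyosin genes lie on both sides.

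The fibroblast and endothelium markers, and most leukocyte markers, were low as well. All 8 measured fibroblast markers fell, between -9.00 and -1.73 with a median of -4.31, led by the matrix genes Dcn at -9.00 ± 0.53 and Col1a2 at -8.90 ± 0.46 (adjusted p = 4.34e-05 for each), followed by Col3a1, Col1a1 and Sparc (Sparc 2.99e-05 to 0.0632 over the alternatives, the highest without moderation). All 3 endothelium markers, Kdr, Tie1 and Emcn, fell, with a median of -1.53. Emcn averaged -0.84 with the line in Cy3 and -2.22 with the line in Cy5. Of 8 leukocyte markers 7 fell and 1 rose, with a median of -3.71 and a range from -5.22 to 0.67, where the one that rose was Tyrobp, named after its value was seen. Without JA 5 of them fell and Tyrobp did not pass. With the line in Cy3 alone, 5 fell and 2 rose, since Cd53, also named after its values were seen, was above 0 on all 3 arrays of that orientation (0.81, 1.12 and 0.25) and below 0 on all 3 of the other (-1.42, -2.52 and -1.10). Their part in the low ratios of the muscle genes was not tested.

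Markers of epithelium and of muscle precursors gave no single direction. Of 3 squamous markers, Cdh3 rose by 1.98 ± 0.14 (adjusted p = 3.74e-04), Lgals7 fell by 5.82 ± 1.00 (4.37e-04; 1.21e-04 to 0.0543 over the alternatives, the highest without moderation) and Cstb fell by 0.68 ± 0.46 (0.0364). Cstb was lost without JA (0.181) and without JB (0.0742), and after centring 1 marker of the list fell and 1 rose (Cstb 0.0222 to 0.199 over the alternatives). The simple epithelial keratin Krt7 fell by 0.76 ± 0.38 (0.0177) and was lost without JA (0.111) and without Amy (0.0938; 0.00334 to 0.141 over the alternatives), and Krt8 averaged 0.41 ± 0.40 (0.111). Of the 9 myoblast and satellite cell symbols 1 was measured, Ncam1, at -0.16 ± 0.45 (0.537). Of the carbonic anhydrases outside the members, Car11 fell by 1.23 ± 0.14 (0.00151) and Car5b averaged -0.24 ± 0.28 (0.23).

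The genes whose ratios lay nearest to those of Myl11 and Des were found by the root mean square difference over the 6 arrays. Nearest to Myl11 were Car3 at 0.183, Nebl at 0.253, the class II histocompatibility gene RT1-Ba at 0.297, the endothelial and myeloid receptor gene Cd93 at 0.344 and the secreted Wnt modulator gene Sfrp2 at 0.375. Nearest to Des were Enpp4 at 0.222, Cd93 at 0.241, Nebl at 0.287, Myl11 at 0.392 and Car3 at 0.418. The members were selected on these ratios and the distance compares the same ratios, so members lying near each other carries no weight of its own. Genes of other tissues stood beside them, and all of these genes were measured against the same pool on the same arrays.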

How the data were processed

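The deposited values were log ratios of spots on 2-colour cDNA arrays, with 1 value for each spot of an array, and were read as log2 ratios. Per the labels, each of 3 tumor lines was hybridized against 1 normal pool on 2 arrays with exchanged dyes. The scanner, the background correction, the normalization and the log base are not given in the sources used here. The base was taken as 2. Correlations over features between the arrays of a dye swap were 0.844 (JA), 0.815 (JB) and 0.888 (Amy), so no sign was turned. Spot intensities were not used. Precision is limited by having 3 lines.

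The platform annotation named 1 gene for 8084 of the 16128 spots, more than 1 for 40 and no gene for 8004. A RefSeq gene was matched by identifier for 8076 spots. Adjacent spots formed clones, and a gene was the mean over its spots. The arrays of a line were averaged, giving n = 3, and tested against 0 with limma 3.58.1 in R 4.3.3 (lmFit, eBayes, two-sided, Benjamini-Hochberg over 7180 features), which was tested on simulated data. The replicate numbers of the arrays are not from the labels. The spread of the pool does not enter the p-values.

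The members and gene lists were chosen with earlier results of these data known. Genes named were all members, the 5 or fewer of each list that had the largest mean and passed with 1 sign on all 6 arrays, all genes of lists with under 6 measured, Myh9 and Actb, and the 5 nearest to Myl11 and to Des. Others are marked as named after their values were seen. Tables and figures were made with pandas 2.3.3 and matplotlib 3.10.9 in Python 3.11.15. Alternatives were array centring, quantile normalization, each dye orientation alone, lines left out, the median over spots, a spread for the pool, unmoderated variances and a stricter threshold.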

Additional observations from a re-analysis of the deposited data

Results flagged for a closer look

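In 2 member clones and 13 of 100 measured list genes, at least 1 line was above 0 on both its arrays and another below 0 on both. Tpm1 clone 1 had JB above 0 and JA and Amy below it, with a range of 3.81 between the line means concerned. Among list genes, 3 had these signs: Lpl, the lipoprotein lipase gene, with 4.43, Cald1 with 1.80 and Ncam1 with 0.90. Lpl was at -2.35 and -2.73 in JA, 1.40 and 1.01 in JB, and -3.12 and -3.34 in Amy. JA and JB were above 0 and Amy below it in Tnni1, with a range of 0.31, in Tpm4 with 1.17 and in Jph1 with 0.71. JA was above 0 and both others below it in Calr with 0.82, Nefh with 0.43 and Foxo3 with 0.34. JA and Amy were above 0 and JB below it in Phkb, with 1.39. In the remaining genes the arrays of 1 line disagreed in sign. There JB was above 0 and Amy below it in Calm2 with 0.98, and Amy was above 0 and JB below it in Fabp3 with 1.51, Capzb with 0.56 and Aldoa with 0.36. All but Cald1 and Ncam1 of the list genes were named after their values were seen. Each line is 1 extract, so none of these differences was tested.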

How the results depend on the processing

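Over all features, 3843 passed. Leaving out 1 line gave 2076 (without JA) to 3698 (without JB), a spread for the pool 1970, unmoderated variances 1040 and an adjusted p under 0.01 2290. Of the list genes, 53 passed as lower, and 34 with a spread for the pool and 27 with unmoderated variances. As higher 14 passed, and 5 (without JA) to 13 (without JB) with 1 line left out, 5 with a spread for the pool, 1 with unmoderated variances and 8 at an adjusted p under 0.01. With fewer lines the test has fewer samples, and for the other settings the cause was not tested. Centring moved the share of passing features that were lower to 52.4%, against 61.3%. Of 55 named list genes, 14 no longer passed when JA was left out, 3 for JB and 5 for Amy. With a spread for the pool 14 of them no longer passed, and with unmoderated variances 25. The 55 include Cald1, Dag1, Cavin1, Car5b, Krt8 and Ncam1, which had not passed to begin with and could not be lost. Of all 67 list genes that passed, 2 changed direction under an alternative. Cd53 was at 0.73 (adjusted p = 0.0292) with the line in Cy3 alone, against -0.48 over both orientations, and Actn4 at 0.28 (0.426) with the line in Cy5 alone, against -0.71. The median of the members was -4.66, and -4.94 with the line in Cy3 alone and -4.35 with the line in Cy5 alone. Tpm1 clone 1 was the 1 clone with a line set apart under each setting run. The 5 genes nearest to Myl11 and the 5 nearest to Des, which share members, were the same after centring. The labels give the arrays no replicate numbers, and arrays were matched between lines by dye orientation. Signal over background was not available, so whether the ratios of the 6 members at or below -4 are bounds cannot be told.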
